A study of Mus musculus with 24 samples.

Results

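The 8 genes described here encode the CRTC coactivators, the CREB-type transcription factors that they bind, and the acetyltransferases that these factors recruit. They were chosen by name, as *Crtc1*, *Crtc2*, *Crtc3*, *Creb1*, *Atf1*, *Crem*, *Crebbp* and *Ep300*, out of the 55471 gene identifiers counted, and all 8 passed the filter on low counts, which kept 17522 genes. Their mRNA was measured by RNA-seq in 3T3 mouse embryonic fibroblasts (MEFs), which are immortalized connective tissue cells in culture, in 24 libraries that form 8 groups of 3. The 4 genotypes were wild type, *Lkb1*-/- (the gene symbol of LKB1 is *Stk11*), and 2 clones, A1 and A2, of *Lkb1*-/-/*Crtc2*-/- MEFs. Each genotype was left untreated or was given the inflammatory cytokine IL-1β for 6 hours, at a dose that the study's methods give as 0.1 ng/mL. Both clones carry the *Lkb1* deletion of their parent line in addition to CRISPR edits aimed at the first exon of *Crtc2*, and each was grown from a single cell, so a genotype here is 1 line or 1 clone and no group holds independent clones. Nothing in the labels says that the 3 libraries of a group came from separate cultures, so p-values measure only the spread between these libraries.

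LKB1 is a kinase that switches on the salt-inducible kinases (SIKs). Active SIKs phosphorylate CRTC proteins, which are then held in the cytoplasm, whereas unphosphorylated CRTC proteins enter the nucleus and bind the leucine zipper of CREB1, ATF1 or CREM on DNA. CREB-type factors read the cAMP response element (CRE), the palindrome TGACGTCA or its half-site TGACG, and after phosphorylation of the factor they recruit the acetyltransferases CBP (*Crebbp*) and p300 (*Ep300*), which acetylate histones and other proteins. Because this control acts on the location and modification of proteins, the levels of mRNA given below measure neither.

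Sequence around the RefSeq starts of 6 members was read for the element that CREB-type factors bind. The windows on GRCm38.p6 held 300 bases each, from 250 before to 50 after a gene's start. They were those of *Crtc1*, *Crtc3*, *Creb1*, *Atf1*, *Crebbp* and *Ep300*. No window was read for *Crtc2* or *Crem*, so nothing is said here of their upstream sequence. The windows of *Crebbp* and *Ep300* lay wholly inside the annotated gene, so none of their bases are upstream of its first annotated start. None of the 6 windows held the full site TGACGTCA, and that of *Atf1* alone held the half-site TGACG, searched on both strands (the full site contains the half-site). Over all 32851 windows of the same length, 1.79% held the full site and 20.8% the half-site. The stretches upstream of the first annotated start are shown for the CRTC genes with the largest opposite changes (*Crtc1* and *Crtc3*) and for the pair of CREB factors that changed in opposite directions (*Creb1* and *Atf1*). They are written 5′ to 3′ in the direction of the gene, in lower case, with the half-site in capitals.
Crtc1 (chr8:70439580-70439823, minus strand): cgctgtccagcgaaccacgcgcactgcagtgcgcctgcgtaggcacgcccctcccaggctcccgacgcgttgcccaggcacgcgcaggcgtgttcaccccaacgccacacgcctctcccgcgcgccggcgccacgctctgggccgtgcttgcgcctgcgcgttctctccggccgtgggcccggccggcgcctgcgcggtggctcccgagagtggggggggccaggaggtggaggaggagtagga
Crtc3 (chr7:80688878-80689127, minus strand): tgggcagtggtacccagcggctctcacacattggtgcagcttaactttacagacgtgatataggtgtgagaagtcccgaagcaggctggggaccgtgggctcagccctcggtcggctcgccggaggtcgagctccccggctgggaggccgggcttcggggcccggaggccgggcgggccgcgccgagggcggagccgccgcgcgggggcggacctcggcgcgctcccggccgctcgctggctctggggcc
Creb1 (chr1:64532554-64532644, plus strand): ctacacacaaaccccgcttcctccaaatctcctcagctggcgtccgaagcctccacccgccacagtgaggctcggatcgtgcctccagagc
Atf1 (chr15:100227609-100227818, plus strand): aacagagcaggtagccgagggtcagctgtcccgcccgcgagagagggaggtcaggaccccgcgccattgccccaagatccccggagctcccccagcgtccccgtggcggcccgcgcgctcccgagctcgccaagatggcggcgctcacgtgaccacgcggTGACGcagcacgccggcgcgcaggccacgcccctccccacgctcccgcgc
A match or its absence describes these letters only.

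The deleted gene was checked first. *Stk11* had 83.4 to 87.9 counts scaled to library size (CPM) in the 6 wild-type libraries and 16.3 to 23.2 CPM in the 18 libraries of the other genotypes, and the ranges did not overlap. Counts on genes were 38842901 to 48594394 per library, with a median of 42431965. Of 9 fibroblast markers, 8 had a median above 1 CPM and *Thy1* was at or near 0. The summed level of the 9 was 5725 CPM or more in every library and that of 5 immune markers 8.96 CPM or less. Single fibroblast markers varied more between libraries, *Pdgfra* from 3.71 to 605 CPM and *Col1a2* from 28.5 to 912 CPM. The libraries numbered 1 stood apart in every group. They had the highest share of read pairs that named no gene, 29.9% to 34.4%. The share of pairs that mapped outside annotated genes was 9.31% to 15.5% in these libraries, against 7.81% to 9.35% in those numbered 2 and 3. Calls of members that changed when they were left out are given both ways.

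Levels of different genes were compared per length, as CPM per kilobase (kb) of merged exon. On this scale *Crtc2* was the highest of the CRTC genes in all 24 libraries. In untreated wild-type MEFs it was at 14.3 ± 0.597 CPM per kb (SD, n = 3), against 3.99 ± 0.287 for *Crtc3* and 2.58 ± 0.0899 for *Crtc1*. *Crtc2* thus made up 68.5% ± 1.81 of the summed CRTC level per length in these cells, *Crtc3* 19.2% ± 1.63 and *Crtc1* 12.4% ± 0.508. In untreated *Lkb1*-/- MEFs the share of *Crtc2* was 69.8% ± 1.40, that of *Crtc1* 19.5% ± 0.618 and that of *Crtc3* 10.6% ± 0.803 on this length. *Crtc1* was above *Crtc3* in these cells on either length, by a margin that depended on the length. Per kilobase of the longest transcript *Crtc1* was at 6.03 ± 0.214 and *Crtc3* at 5.82 ± 0.477 CPM, with overlapping ranges, and the share of *Crtc2* was 65.0% ± 2.10 in wild-type and 69.6% ± 1.54 in *Lkb1*-/- libraries. The summed level was 20.8 ± 0.318 CPM per kb in untreated wild-type, 28.4 ± 0.441 in *Lkb1*-/-, 16.4 ± 0.348 in clone A1 and 19.4 ± 0.942 in clone A2 libraries. Every untreated *Lkb1*-/- library was above every library of the other 3 untreated genotypes. Among the factors, *Atf1* had the highest level per length, 39.7 ± 1.66 CPM per kb in untreated wild-type MEFs, followed by *Creb1* at 10.7 ± 0.198 and *Crem* at 1.35 ± 0.050. *Crebbp* was at 25.8 ± 0.891 CPM per kb in the same cells and *Ep300* at 15.2 ± 0.563.

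**Figure D1:**
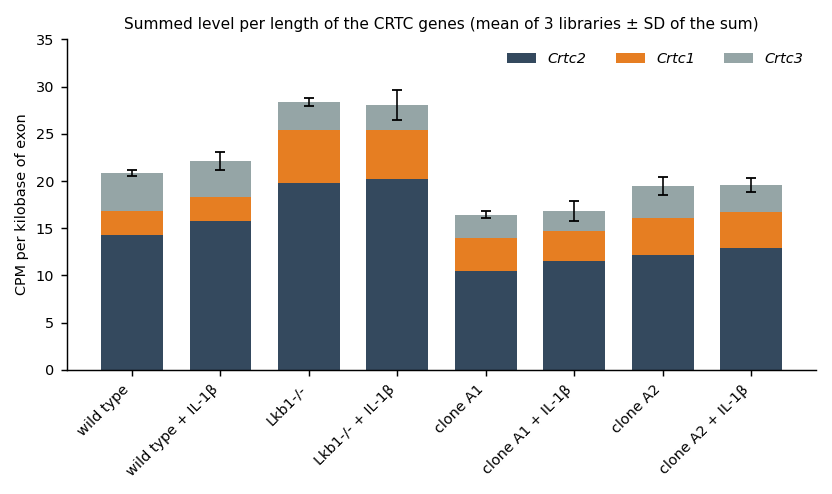
Summed level of the CRTC genes in CPM per kilobase of exon, with 1 stacked bar per group (mean of 3 libraries) and error bars of 1 SD of the sum. The bars of the *Lkb1*-/- MEFs reach 28.4 (untreated) and 28.1 (IL-1β), those of the clones 16.4 to 19.5, and *Crtc2* (dark) is the largest part of every bar.

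Counts of members were read against the share of all tested genes that passed the same test, an FDR under 0.05 in edgeR's quasi-likelihood test over the whole table. Between untreated *Lkb1*-/- and wild-type MEFs, 6 of the 8 members differed (4 higher, 2 lower), where 55.9% of all tested genes did, split into 30.1% higher and 25.8% lower. Under IL-1β 7 of 8 differed (5 higher, 2 lower) with a background of 57.4% (30.2% and 27.1%). Between untreated clone A1 and untreated *Lkb1*-/- MEFs 3 members were lower and none higher (background 35.3%, 18.9% higher and 16.4% lower). For clone A2 3 were lower and 1 was higher (32.3%, 17.1% and 15.1%). Under IL-1β the counts were the same, 3 lower for clone A1 (36.7%, 19.4% higher and 17.3% lower) and 3 lower with 1 higher for clone A2 (32.8%, 17.1% and 15.8%). For clone A1 the count depended on the setting: in both conditions 5 members were lower, *Crtc3* and *Creb1* being added, under upper quartile scaling, with all genes kept, with at least 10 counts in every library, in a model of the compared groups alone, with the replicate block, with each library's share of pairs naming no gene as a covariate or without the libraries numbered 1, and under IL-1β with DESeq2 also. The share of all genes called lower in those settings was 17.2% to 23% untreated and 17.1% to 23.6% under IL-1β where a filter was kept, and 7.96% and 8.11% of the 36796 genes tested when all were kept. Against untreated wild type, 7 of 8 members differed for clone A1 (3 higher, 4 lower, background 55.4%, 30.3% and 25.1%) and 7 for clone A2 (4 higher, 3 lower, 60.6%, 32.7% and 27.9%). Under IL-1β 7 differed for clone A1 (3 higher, 4 lower, 56.9%, 30.1% and 26.9%) and 7 for clone A2 (3 higher, 4 lower, 60.8%, 32% and 28.8%). The total shares of members are near or above the backgrounds, while the shares by direction lie on either side of theirs. All are given as a description, and the comparisons share libraries with each other. The median log2 fold change of the 8 members between untreated *Lkb1*-/- and wild-type MEFs was 0.27, beside 0.04 over all tested genes.

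*Crtc1*, a CRTC gene known best from neurons, was higher in *Lkb1*-/- MEFs and lower again, though not back to wild type, in both clones. It was counted at 28.9, 29.8 and 27.8 CPM in the untreated wild-type libraries numbered 1, 2 and 3 and at 59.4, 63.4 and 62.9 CPM in the untreated *Lkb1*-/- libraries. The groups did not overlap, and the log2 difference was 1.10 (SE 0.072, edgeR FDR = 3.7e-11). Here as in all bulk RNA, fewer cells that express a gene and less RNA per cell cannot be told apart. Clone A1 had 37.8, 39.6 and 39.4 CPM and clone A2 37.6, 45.3 and 47.2 CPM without treatment, all between the ranges of the wild-type and *Lkb1*-/- libraries. Against *Lkb1*-/- MEFs *Crtc1* fell by 0.67 (log2, SE 0.072, edgeR FDR = 4.0e-07) in clone A1 and by 0.51 (SE 0.072, edgeR FDR = 1.4e-05) in clone A2. Against wild type it was still higher, by 0.43 in clone A1 (edgeR FDR = 3.4e-05) and by 0.59 in clone A2 (edgeR FDR = 4.6e-07). Under IL-1β the means were 28.5 ± 0.799 CPM in wild-type, 58.6 ± 5.07 in *Lkb1*-/-, 35.7 ± 0.954 in clone A1 and 42.5 ± 1.06 CPM in clone A2 libraries. This is the order of the untreated groups, and the *Lkb1*-/- libraries again lay above all others. The log2 fold change under IL-1β was 1.04 between *Lkb1*-/- and wild-type MEFs (SE 0.072, edgeR FDR = 8.9e-11), −0.72 between clone A1 and *Lkb1*-/- MEFs (edgeR FDR = 1.7e-07) and −0.46 for clone A2 (edgeR FDR = 4.4e-05).

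*Crtc2*, the coactivator gene that was targeted, lies on chromosome 3 at 90254163 to 90264125 of GRCm38. In untreated cells it was counted at 61.2, 56.5 and 57.5 CPM in wild-type and at 82.1, 79.1 and 82.3 CPM in *Lkb1*-/- libraries. The clones kept reads of the gene, 45.2, 41.1 and 42.4 CPM in A1 and 50.6, 48.9 and 50.0 CPM in A2, all below every wild-type library. Gene counts do not read the edited bases, and the protein was not measured here. The study reports that its knockout clones were checked by western blotting and shows an immunoblot for CRTC2 in *Lkb1*-/-/*Crtc2*-/- MEFs. The log2 fold change was 0.47 between *Lkb1*-/- and wild-type MEFs (SE 0.066, edgeR FDR = 2.8e-06), −0.92 between clone A1 and *Lkb1*-/- MEFs (SE 0.066, edgeR FDR = 2.2e-09) and −0.70 for clone A2 (SE 0.066, edgeR FDR = 9.9e-08). As a ratio of group means, untreated clone A1 held 0.529 and clone A2 0.614 of the *Lkb1*-/- level. Against untreated wild type the log2 fold change was −0.45 in clone A1 (edgeR FDR = 7.0e-06) and −0.23 in clone A2 (edgeR FDR = 0.0049), the latter not called under upper quartile scaling (−0.14, FDR = 0.14). Under IL-1β the change between *Lkb1*-/- and wild-type MEFs was 0.35 (SE 0.066, edgeR FDR = 9.4e-05), with 79.4, 84.6 and 84.2 CPM against 64.6, 61.1 and 68.5 CPM and no overlap.

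*Crtc3*, the third of the family, went the other way. In untreated cells it was counted at 36.1, 40.4 and 41.4 CPM in wild-type and at 27.0, 31.3 and 31.1 CPM in *Lkb1*-/- libraries, so it was lower in every *Lkb1*-/- library. The log2 fold change was −0.40 (SE 0.127, edgeR FDR = 0.011) without treatment and −0.54 (SE 0.127, edgeR FDR = 0.0010) under IL-1β. In untreated cells clone A1 had 22.4, 24.2 and 26.4 CPM and clone A2 26.4, 36.6 and 37.2 CPM. The clones thus lay on either side of *Lkb1*-/- MEFs, at −0.29 for A1 (95% interval −0.56 to −0.03, edgeR FDR = 0.084) and 0.17 for A2 (−0.10 to 0.43, edgeR FDR = 0.35), neither called. Under IL-1β the differences were −0.31 for A1 (−0.58 to −0.04, edgeR FDR = 0.067) and 0.11 for A2 (−0.16 to 0.37, edgeR FDR = 0.57). The first of these passed once replicate numbers were blocked (−0.30, edgeR FDR = 0.00082), in a comparison where same-numbered libraries deviated together, and also with all 8 libraries numbered 1 left out (−0.41, edgeR FDR = 9.0e-05). Without that set the untreated differences were −0.30 for A1 (edgeR FDR = 0.00087) and 0.24 for A2 (edgeR FDR = 0.0043). With the covariate they were −0.34 (edgeR FDR = 0.00019) and 0.16 (edgeR FDR = 0.044). Leaving out the first library of untreated clone A2 alone gave 0.32 (edgeR FDR = 0.029). Leaving out the first *Lkb1*-/- library under IL-1β gave −0.45 for A1 (edgeR FDR = 0.0090), while the difference for A2, not called, turned to −0.03. Between the clones *Crtc3* was higher in A2, by 0.46 without treatment (SE 0.127, edgeR FDR = 0.0085) and by 0.42 under IL-1β (SE 0.128, edgeR FDR = 0.017). The latter was lost without the first library of clone A1 (0.38, edgeR FDR = 0.065) or the third of clone A2 (0.36, edgeR FDR = 0.052). Against untreated wild type *Crtc3* was lower in A1 (−0.69, edgeR FDR = 9.2e-05), whereas A2 was at −0.23 (edgeR FDR = 0.12) and was called with all genes kept (−0.27, edgeR FDR = 0.031), without its second (−0.35, edgeR FDR = 0.030) or the third library (−0.35, edgeR FDR = 0.027), with the libraries numbered 1 left out (−0.15, edgeR FDR = 0.035) or with the covariate (−0.21, edgeR FDR = 0.0064).

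**Figure D2:**
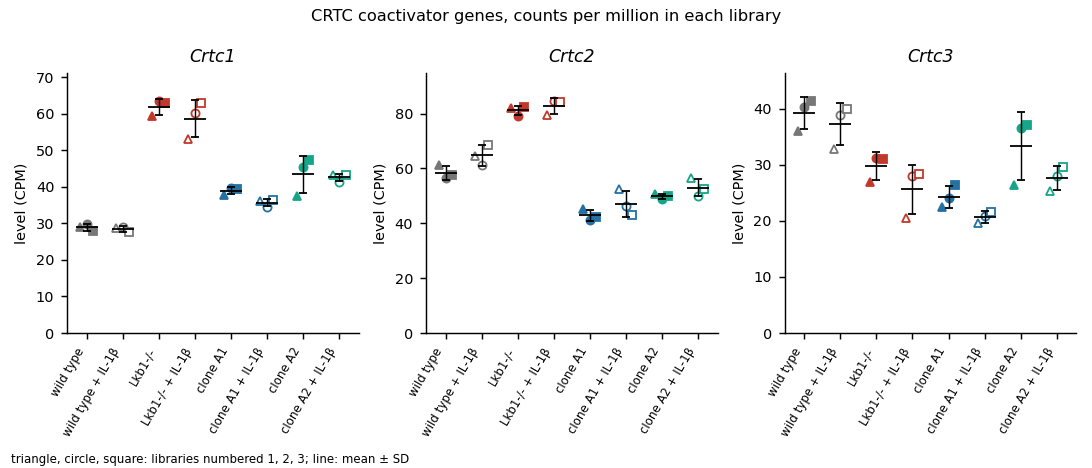
Level in CPM (y axis, from 0) of *Crtc1*, *Crtc2* and *Crtc3* in each of the 24 libraries by group, with the mean and SD of 3 libraries as a line and bar. *Crtc1* lies at 27.6 to 29.8 CPM in the wild type and at 53.0 to 63.4 CPM in *Lkb1*-/- MEFs, *Crtc2* is lowest in the clones, and *Crtc3* is lowest in the library numbered 1 (triangle) of all 8 groups.

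Among the transcription factors, *Creb1* and *Atf1* differed in opposite directions in *Lkb1*-/- MEFs. *Creb1* encodes the CREB protein itself. It was counted at 147, 149 and 144 CPM in untreated wild-type and at 98.6, 113 and 115 CPM in untreated *Lkb1*-/- libraries, with no overlap, and the log2 fold change was −0.43 (SE 0.107, edgeR FDR = 0.0019). Under IL-1β it was −0.47 (SE 0.108, edgeR FDR = 0.00081). Clone A1 was at 92.7 ± 11.6 CPM and clone A2 at 107 ± 10.6 CPM without treatment. Both ranges overlapped that of *Lkb1*-/- MEFs (109 ± 9.11 CPM), and the differences were −0.23 (95% interval −0.46 to −0.01, edgeR FDR = 0.10) and −0.03 (−0.26 to 0.19, edgeR FDR = 0.86). Under IL-1β clone A1 was at −0.26 (edgeR FDR = 0.064), which was called with the replicate block (−0.26, edgeR FDR = 0.0017), without the first *Lkb1*-/- library (−0.35, edgeR FDR = 0.024) and without the third clone A1 library (−0.30, edgeR FDR = 0.046). With the libraries numbered 1 left out, clone A1 was lower untreated (−0.21, edgeR FDR = 0.0082) and under IL-1β (−0.26, edgeR FDR = 0.0020). Against wild type *Creb1* was lower in both clones, by log2 −0.66 (edgeR FDR = 2.2e-05) in A1 and −0.46 (edgeR FDR = 0.00090) in A2 without treatment.

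*Atf1*, the closest relative of *Creb1*, had the narrowest spread of the factors. Its untreated levels were 127, 118 and 120 CPM in wild-type and 144, 142 and 143 CPM in *Lkb1*-/- libraries. All *Lkb1*-/- libraries were higher, with a log2 difference of 0.23 (SE 0.047, edgeR FDR = 0.00022). The clones were at 150.0 ± 1.62 CPM (A1) and 150.2 ± 1.06 CPM (A2), and no library of either overlapped the *Lkb1*-/- libraries, though the differences were not called, with intervals of −0.03 to 0.17 for both (edgeR FDR = 0.30 and 0.29). Under IL-1β the difference between *Lkb1*-/- and wild-type MEFs was 0.16 (SE 0.047, edgeR FDR = 0.0072), which was lost without the third wild-type library (0.12, edgeR FDR = 0.057), with unstranded counts (0.10, edgeR FDR = 0.088) and with all genes kept (0.18, edgeR FDR = 0.084).

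*Crem*, the third factor, encodes both activators and, from an internal promoter, the repressor ICER, which gene counts do not separate. It was the member with the fewest counts, 191 to 555 per library, and lies on chromosome 18 across from *Gm6225*, a transcript on the opposite strand with 472 shared exon bases and 31 to 102 counts per library. *Crem* was lower in both clones than in any other genotype. It was counted at 9.80, 8.75 and 10.9 CPM in untreated *Lkb1*-/- libraries, at 5.19, 5.74 and 6.16 CPM in clone A1 and at 4.37, 4.82 and 4.78 CPM in clone A2. The groups did not overlap, and against *Lkb1*-/- MEFs *Crem* fell by 0.78 (log2, SE 0.139, edgeR FDR = 0.00015) in A1 and by 1.07 (SE 0.139, edgeR FDR = 6.0e-06) in A2. Under IL-1β the levels were 11.8, 11.4 and 13.3 CPM in *Lkb1*-/-, 6.74, 6.15 and 5.87 CPM in A1 and 4.22, 4.29 and 6.02 CPM in A2 libraries. The log2 fold changes were −0.96 (edgeR FDR = 1.4e-05) for A1 and −1.33 (edgeR FDR = 3.9e-07) for A2, the largest in size among the members in each of these comparisons. Both clones were also below wild type, by log2 −0.48 (A1, edgeR FDR = 0.0059) and −0.77 (A2, edgeR FDR = 6.7e-05) without treatment. Between *Lkb1*-/- and wild-type MEFs, the latter at 8.04, 7.62 and 8.19 CPM, the untreated difference of 0.30 was not called (95% interval 0.02 to 0.59, edgeR FDR = 0.068), though it was under upper quartile scaling (0.38, edgeR FDR = 0.016), with at least 10 counts in every library (0.34, edgeR FDR = 0.032), in a model of the compared groups alone (0.30, edgeR FDR = 0.038), with the covariate (0.31, edgeR FDR = 0.037) and without the second *Lkb1*-/- library (0.38, edgeR FDR = 0.044). The difference of 0.45 under IL-1β was called (SE 0.136, edgeR FDR = 0.0077). That call was lost without the first wild-type library (0.31, edgeR FDR = 0.064), without the third *Lkb1*-/- library (0.36, edgeR FDR = 0.0503) and without all libraries numbered 1 (0.33, edgeR FDR = 0.065).

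**Figure D3:**
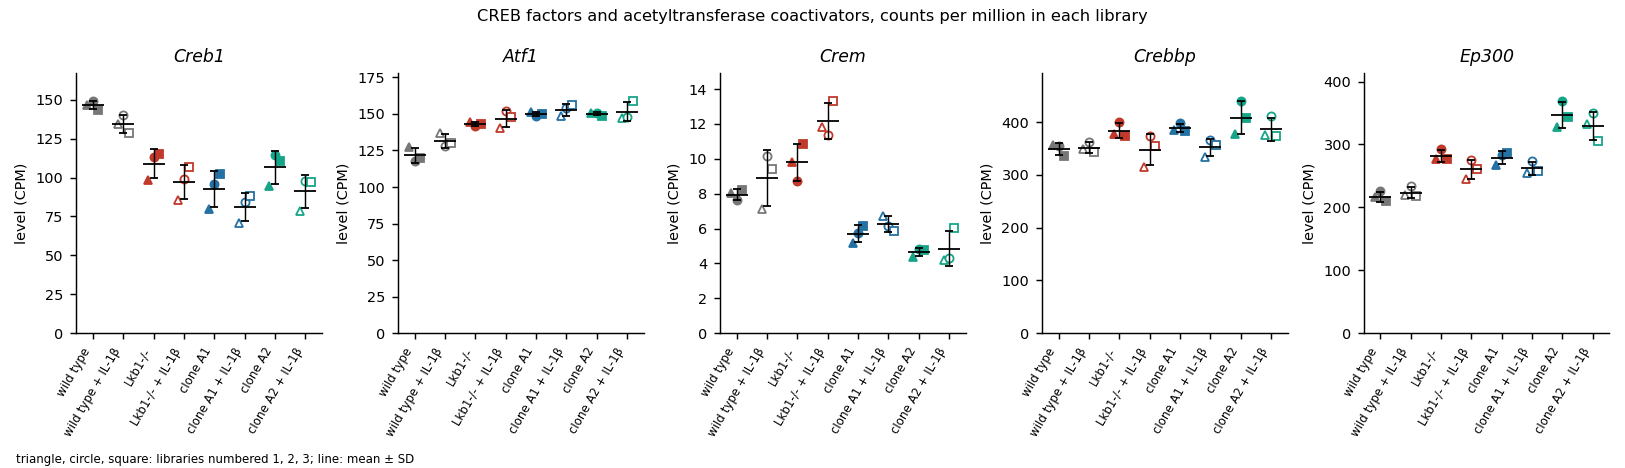
Level in CPM (y axes, from 0, with their own scales) of *Creb1*, *Atf1*, *Crem*, *Crebbp* and *Ep300* in each of the 24 libraries by group, with the mean and SD of 3 libraries as a line and bar. *Creb1* is highest in the wild type, *Crem* lies at 4.22 to 6.74 CPM in the clones and at 7.11 CPM or above elsewhere, and *Ep300* is highest in clone A2.

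The acetyltransferase genes differed from each other. *Ep300* was counted at 216, 225 and 209 CPM in untreated wild-type, at 276, 292 and 276 CPM in *Lkb1*-/-, at 267, 283 and 286 CPM in clone A1 and at 328, 369 and 344 CPM in clone A2 libraries. Every library without LKB1 was above the wild-type libraries, clone A2 was above all others, and clone A1 overlapped *Lkb1*-/- MEFs. The log2 fold change was 0.38 between *Lkb1*-/- and wild-type MEFs (SE 0.062, edgeR FDR = 2.7e-05) and 0.22 under IL-1β (SE 0.062, edgeR FDR = 0.0045). Clone A2 was higher than *Lkb1*-/- MEFs by 0.30 (SE 0.062, edgeR FDR = 0.00081) and, under IL-1β, by 0.34 (edgeR FDR = 0.00027). For clone A1 the differences were −0.02 (95% interval −0.15 to 0.11, edgeR FDR = 0.88) and 0.01 (−0.12 to 0.14, edgeR FDR = 0.95). *Crebbp* was the most abundant member by CPM, at 315 to 440 CPM over all libraries, and its group means spanned 1.17 times from lowest to highest, the least of the 8. Between *Lkb1*-/- and wild-type MEFs it was not called (0.14, 95% interval −0.0047 to 0.28, edgeR FDR = 0.095, and under IL-1β −0.01, edgeR FDR = 0.87). The untreated value was called under upper quartile scaling (0.22, edgeR FDR = 0.0024), with at least 10 counts in every library (0.17, edgeR FDR = 0.0096), in a model of the compared groups alone (0.14, edgeR FDR = 0.046) and with the covariate (0.14, edgeR FDR = 0.019). With the libraries numbered 1 left out it was 0.16 (edgeR FDR = 0.033), and clone A1 against untreated wild type, at 0.16 in all libraries (edgeR FDR = 0.055), was at 0.18 (edgeR FDR = 0.022). The latter was also called under upper quartile scaling (0.24, edgeR FDR = 0.00088), with at least 10 counts in every library (0.18, edgeR FDR = 0.0066), in the compared groups alone (0.17, edgeR FDR = 0.015), with the covariate (0.15, edgeR FDR = 0.016) and by DESeq2 (0.14, FDR = 0.047). Untreated clone A2 was called higher than wild type for *Crebbp* (0.23, SE 0.067, edgeR FDR = 0.0063), and it was lost without the second clone A2 library (0.13, edgeR FDR = 0.091) or the third wild-type library (0.16, edgeR FDR = 0.059). Clone A2 against *Lkb1*-/- MEFs under IL-1β was at 0.15 (edgeR FDR = 0.091) and was called with the replicate block (0.15, edgeR FDR = 0.011), with at least 10 counts in every library (0.14, edgeR FDR = 0.045), with the covariate (0.15, edgeR FDR = 0.020), without the first clone A2 library (0.19, edgeR FDR = 0.035) and without the second *Lkb1*-/- library (0.21, edgeR FDR = 0.043). Against wild type under IL-1β clone A2 was at 0.14 (edgeR FDR = 0.083), called without the third library of that clone (0.20, edgeR FDR = 0.013) or without the libraries numbered 1 (0.16, edgeR FDR = 0.039). This difference was called as well under upper quartile scaling (0.23, edgeR FDR = 0.0014), with at least 10 counts in every library (0.20, edgeR FDR = 0.0034), with the size factors of DESeq2 (0.17, edgeR FDR = 0.030), by DESeq2 itself (0.17, FDR = 0.018) and with the covariate (0.14, edgeR FDR = 0.018).

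**Figure D4:**
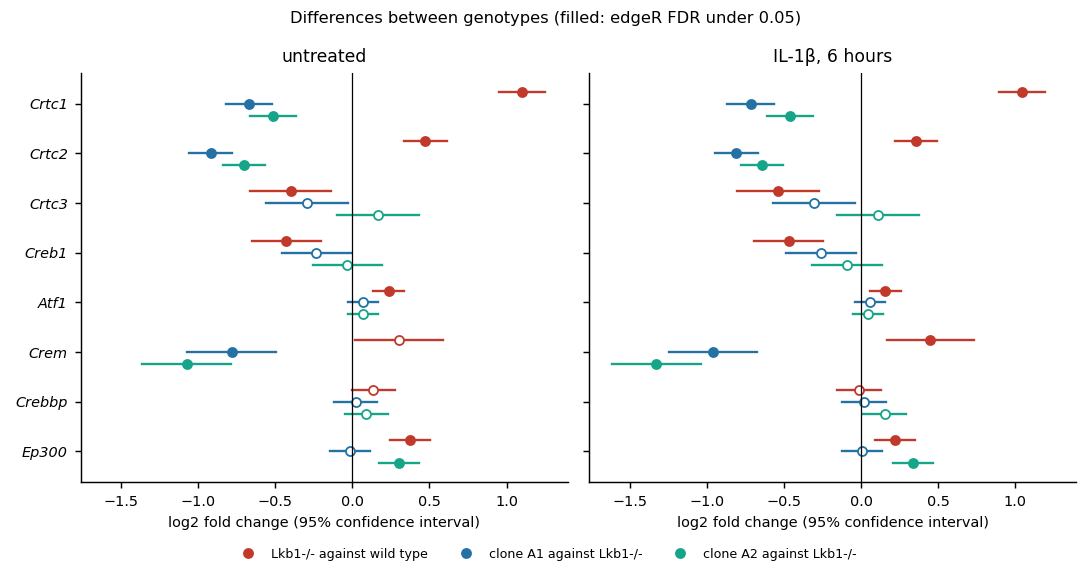
Log2 fold change (x axis) of the 8 members with 95% confidence intervals for *Lkb1*-/- against wild-type MEFs and for each clone against *Lkb1*-/- MEFs, untreated (left) and under IL-1β (right), with filled points for edgeR FDR under 0.05. *Crtc1*, *Crtc2* and *Crem* lie to the left of 0 for both clones, and *Ep300* lies to the right for clone A2 (0.30 and 0.34) and at 0 for clone A1.

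The 2 clones carry the same genotype by label and were compared directly. Without treatment 3 members were higher in A2 than in A1 (background 32.5% of all tested genes, 15.8% higher and 16.7% lower), and the same number under IL-1β (30.7%, 15.1% and 15.6%). The number called was 5 untreated with the replicate block, the covariate or the libraries numbered 1 left out, where 46.3%, 46.6% and 40.7% of all genes were called in turn. Under IL-1β it was 7 with the block or the covariate (each 44.4% of all genes), 5 with DESeq2 (32.9%) and 5 without those libraries (38.3%). *Ep300* was higher in A2 by 0.32 untreated (SE 0.062, edgeR FDR = 0.00049) and by 0.33 under IL-1β (edgeR FDR = 0.00034). *Crtc2* itself was higher by 0.22 untreated (SE 0.066, edgeR FDR = 0.016), a call lost without the second (0.18, edgeR FDR = 0.079) or the third (0.20, edgeR FDR = 0.053) clone A1 library. It was also lost with upper quartile scaling (0.21, edgeR FDR = 0.051), with all genes kept regardless of count (0.21, edgeR FDR = 0.11) and in a model of the compared groups alone (0.22, edgeR FDR = 0.064). Under IL-1β it was at 0.17 (95% interval 0.03 to 0.30, edgeR FDR = 0.064), called with the replicate block (0.17, edgeR FDR = 0.016), by DESeq2 (0.17, FDR = 0.047), without the first A1 library (0.25, edgeR FDR = 0.0076) and without the second A2 library (0.21, edgeR FDR = 0.046). *Crtc1* was higher by 0.25 under IL-1β (SE 0.072, edgeR FDR = 0.010), lost without the second A1 library (0.23, edgeR FDR = 0.051) or with all genes kept (0.24, edgeR FDR = 0.075). Its untreated difference of 0.16 (edgeR FDR = 0.11) was called with at least 10 counts in every library (0.15, edgeR FDR = 0.049) and without the first A2 library (0.24, edgeR FDR = 0.0016), and without that library so was *Creb1* (0.28, edgeR FDR = 0.045, against 0.20 with edgeR FDR = 0.16). *Crem* was at −0.37 under IL-1β (95% interval −0.66 to −0.08, edgeR FDR = 0.052). It was called under upper quartile scaling (−0.40, edgeR FDR = 0.025), with at least 10 counts in every library (−0.38, edgeR FDR = 0.031), by DESeq2 (−0.37, FDR = 0.043), without the third A2 library (−0.56, edgeR FDR = 0.0047) and with the replicate block (−0.38, edgeR FDR = 0.014), as were *Creb1* (0.17, edgeR FDR = 0.038) and *Crebbp* (0.13, edgeR FDR = 0.026). With the libraries numbered 1 left out, *Crem* was at −0.22 (edgeR FDR = 0.29), and calls were added for *Crtc2* (0.20, edgeR FDR = 0.014) and *Creb1* (0.17, edgeR FDR = 0.023) under IL-1β and for *Crtc1* (0.23, edgeR FDR = 0.0044) and *Creb1* (0.18, edgeR FDR = 0.015) without treatment. The covariate added calls for *Crtc1* (0.17, edgeR FDR = 0.015) and *Creb1* (0.25, edgeR FDR = 0.00075) without treatment and, under IL-1β, for *Crtc2* (0.16, edgeR FDR = 0.031), *Creb1* (0.21, edgeR FDR = 0.0048), *Crem* (−0.36, edgeR FDR = 0.032) and *Crebbp* (0.15, edgeR FDR = 0.022). Each clone is 1 line, so effects of the edit and of the clone cannot be told apart in these values.

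*Crtc3* and *Creb1* were lower under IL-1β in 12 of 12 pairs of libraries with the same genotype and number. The differences were small. Once the pairs entered the test, *Crtc3* was called in every genotype except wild type, and *Creb1* in clone A2 alone. The unpaired test of all libraries called neither in any genotype. How many of all genes were lower in every pair was not counted. Of the other members, *Crtc1* was lower in 11 pairs, *Crebbp* in 10, *Ep300* in 8, *Atf1* and *Crem* in 4 each and *Crtc2* in 1, as a description. Once replicate numbers were blocked, in comparisons where same-numbered libraries deviated together, *Crtc3* was called lower under IL-1β in *Lkb1*-/- MEFs (−0.22, edgeR FDR = 0.024), clone A1 (−0.23, edgeR FDR = 0.034) and clone A2 (−0.26, edgeR FDR = 0.0063). In the same fits *Creb1* was called lower in clone A2 (−0.23, edgeR FDR = 0.014) and *Crebbp* in *Lkb1*-/- MEFs (−0.14, edgeR FDR = 0.04998). Of all tested genes 14.8% were called in *Lkb1*-/- MEFs with the block, 9.61% in clone A1 and 17.9% in clone A2, of which those lower made up 9.07%, 5.94% and 10.6% of the tested genes. Libraries taken as unpaired gave 0 of 8 members called in wild-type, *Lkb1*-/-, clone A1 and clone A2 MEFs, where 2.26%, 4.74%, 1.99% and 5.68% of all tested genes were called by edgeR. At an unadjusted p under 0.05 the members numbered 2, 1, 1 and 2, and DESeq2 also called 0 in each. For scale, *Il6*, an inflammatory cytokine gene, went from 1.89 ± 0.411 to 118 ± 8.395 CPM in *Lkb1*-/- MEFs under IL-1β. The values nearest a change were those of *Crem* in *Lkb1*-/- MEFs (0.31, 95% interval 0.03 to 0.59, edgeR FDR = 0.27) and of *Crtc3* in clone A2 (−0.27, −0.54 to −0.01, edgeR FDR = 0.26). *Crtc2* was between 0.03 (*Lkb1*-/-, interval −0.11 to 0.16, edgeR FDR = 0.91) and 0.15 (wild type, 0.01 to 0.29, edgeR FDR = 0.38). Without the first untreated library of clone A2, *Crtc3* was called in that clone without the block as well (−0.40, edgeR FDR = 0.024). Leaving out all libraries numbered 1 gave calls for *Crtc3* in clone A1 (−0.25, edgeR FDR = 0.027) and clone A2 (−0.36, edgeR FDR = 0.00089) and for *Creb1* in clone A2 (−0.21, edgeR FDR = 0.020). In that set 5.15% of all genes were called in clone A1 and 14.6% in clone A2. The covariate gave calls in clone A2 for *Crtc3* (−0.23, edgeR FDR = 0.021) and *Creb1* (−0.20, edgeR FDR = 0.016), also with 14.6% of all genes called. With it 0 members were called in *Lkb1*-/- MEFs and 0 in clone A1. In wild-type MEFs *Crtc3* was at −0.08 (−0.34 to 0.19, edgeR FDR = 0.92) and no member was called with the block.

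Whether the response to IL-1β differed between genotypes was tested with the difference of the responses. No member was called by edgeR for *Lkb1*-/- minus wild type (background 0.245%), clone A1 minus *Lkb1*-/- (0.0285%) or clone A2 minus *Lkb1*-/- (0%). None reached an unadjusted p under 0.05, and DESeq2 called none. *Crem* had a response difference of 0.15 (95% interval −0.26 to 0.55) for *Lkb1*-/- minus wild type, −0.18 (−0.58 to 0.23) for clone A1 and −0.26 (−0.67 to 0.15) for clone A2. Each of these intervals includes 0.

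Within groups, levels of several members moved with the share of pairs that named no gene, most of all those of *Crtc3* and *Creb1*. *Crtc3* was lowest in the library numbered 1 in 8 of 8 groups and *Creb1* in 6 of 8, while *Crtc2* was highest there in 5 of 8. The deviation from the group mean of log2 CPM had a Pearson r with that of the share of pairs naming no gene of −0.89 for *Crtc3*, −0.87 for *Creb1*, −0.62 for *Crtc1*, −0.61 for *Crebbp*, between −0.38 and −0.32 for *Ep300*, *Crem* and *Atf1*, and 0.41 for *Crtc2*, over 24 libraries that share 8 group means and their number, given as a description. Without the 8 libraries numbered 1, the untreated difference between *Lkb1*-/- and wild-type MEFs was −0.39 for *Crtc3* and −0.36 for *Creb1*, and under IL-1β −0.49 and −0.39, all called (edgeR FDR = 4.4e-05, 6.1e-05, 5.5e-06 and 3e-05). With the share as a covariate these were −0.38, −0.41, −0.52 and −0.45, also called. Over the 8 group means *Crtc3* and *Creb1* had a Pearson r of 0.95 with each other, and *Creb1* and *Atf1* one of −0.94, again as a description of groups that share genotypes.

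**Figure D5:**
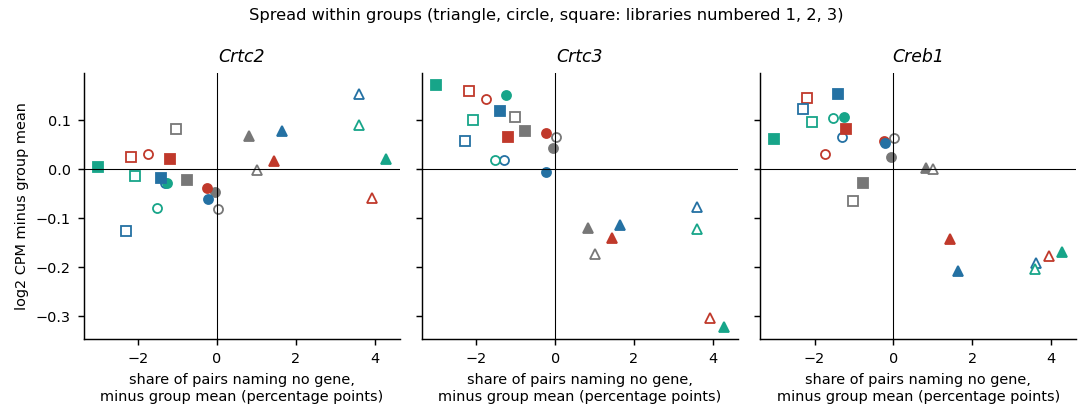
Deviation of log2 CPM from the group mean (y axis) against the deviation of the share of read pairs naming no gene, in percentage points (x axis), for *Crtc2*, *Crtc3* and *Creb1* in 24 libraries. The libraries numbered 1 (triangles) lie to the right of 0 in all groups, and there *Crtc3* is below 0 in all 8 groups.

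Genes with a pattern of group means most like that of a member, by Pearson r of log2 CPM over the 8 groups among genes with a mean log2 CPM above 3, were named for each. *Crtc1* was followed most closely by *Faap20* (r = 0.995), part of a DNA repair complex, and *Prkacb* (0.991), a catalytic subunit of protein kinase A, which phosphorylates CREB. *Crtc2* was followed by *Ing1* (0.991) and *Xab2* (0.991), *Crtc3* by *Vps35l* (0.992) and *Dock1* (0.992), and *Creb1* by *Mia3* (0.994) and *Chmp3* (0.992). The genes nearest to *Atf1* were *Arpc5l* (0.987) and *Ube2o* (0.985), and those nearest to *Crem* were *Hist2h4* (0.983) and *Ufsp2* (0.981). *Crebbp* was followed by *Arhgap1* (0.980) and the chromatin remodeler gene *Chd8* (0.967), and *Ep300* by *Pigu* (0.996) and the transcription elongation gene *Rtf1* (0.994). The 8 points of each r share genotypes, and the values are a description.

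The genes around the members were counted by role, from lists drawn up with earlier results known. Of 21 regulators of CRTC proteins, 3 were higher and 12 lower in untreated *Lkb1*-/- than in wild-type MEFs (background 30.1% higher and 25.8% lower), and the median log2 fold change was −0.24. The deleted *Stk11* (−2.31) is 1 of the 12. *Ppp3ca*, a catalytic subunit of calcineurin, which dephosphorylates CRTC proteins, was higher by 1.87 (SE 0.237, edgeR FDR = 1.2e-06). *Sik1*, a kinase gene that is itself a CREB target, was higher by 1.05 (SE 0.139, edgeR FDR = 1.5e-06), and *Cop1*, a ubiquitin ligase of CRTC2, was lower (−0.97, SE 0.0585, edgeR FDR = 8.6e-12). Under IL-1β clone A1 had 5 of the 21 higher and 7 lower than *Lkb1*-/- MEFs (background 19.4% and 17.3%), and for clone A2 the counts were 2 and 5 (17.1% and 15.8%). Lower in both were *Mark2* (−0.71 in A1 and −0.36 in A2), a kinase that acts on CRTC2, and *Stradb* (−0.65 and −0.35), a partner of LKB1. *Strada*, the other partner of that kind, was higher (0.36 and 0.47), as were the remaining reads of *Stk11* (0.42 and 0.30).

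Of 18 genes of kinases that phosphorylate CREB, 8 were higher and 4 lower in untreated *Lkb1*-/- than in wild-type MEFs (background 30.1% and 25.8%), with a median of 0.19. The ribosomal S6 kinase gene *Rps6ka2* was higher by 3.10 (SE 0.186, edgeR FDR = 1.1e-11) and *Camk1* by 0.69 (SE 0.0928, edgeR FDR = 1.9e-06). *Prkar2b* (−1.77) and *Prkar2a* (−1.15), regulatory subunits that hold protein kinase A inactive, were lower. In the clones under IL-1β the counts were 5 higher and 7 lower for A1 (background 19.4% and 17.3%) and 4 higher and 5 lower for A2 (17.1% and 15.8%). *Rps6ka4* (−0.59 in A1 and −0.93 in A2) and *Mapkapk2* (−0.45 and −0.54), both kinases of the stress pathway, were lower in both, and *Prkar2b* (0.58 and 0.34) and *Camk2g* (0.21 and 0.34) were higher.

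Of 15 tested other CREB and ATF factors, 3 were higher and 4 lower in untreated *Lkb1*-/- MEFs (background 30.1% and 25.8%), with a median of −0.01, and these shares are near or below the background. The highest by fold was *Creb5* (1.89, SE 0.131, edgeR FDR = 9.6e-11), followed by *Atf7* (0.87), whereas *Atf6* (−1.98), a sensor of stress in the endoplasmic reticulum, and *Crebzf* (−0.45) were lower. In the clones under IL-1β 2 were higher and 2 lower for A1 (19.4% and 17.3%) and 4 higher and 2 lower for A2 (17.1% and 15.8%), among them *Creb5* (0.65 and 0.37), *Atf6b* (−0.74 and −0.25) and *Crebzf* (−0.39 and −0.56). Of 15 other acetyltransferase and class IIa deacetylase genes, the latter also SIK substrates, 4 were higher and 7 lower in untreated *Lkb1*-/- MEFs (background 30.1% and 25.8%), with a median of −0.13. *Hdac4* was higher by 0.68 (SE 0.0985, edgeR FDR = 4.9e-06) and *Kat6b* by 0.42, while *Kat2b* (−0.87) and the coactivator gene *Ncoa2* (−0.68) were lower. Under IL-1β clone A1 had 2 of these higher and 6 lower (19.4% and 17.3%), and clone A2 had 3 and 2 (17.1% and 15.8%). *Hdac4* was lower in both (−1.26 in A1, edgeR FDR = 7.9e-09, and −1.01 in A2), as was *Kat5* (−0.47 and −0.40), and *Kat2a* (0.38 and 0.48) and *Kat7* (0.22 and 0.26) were higher.

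Textbook CREB target genes had the median farthest from 0 of the 5 lists between untreated *Lkb1*-/- and wild-type MEFs. This list too was drawn up with earlier results of these data known, so its counts and medians are a description. Of 20 tested of 22 listed, 14 were higher and 2 lower in untreated *Lkb1*-/- than in wild-type MEFs (background 30.1% and 25.8%). Their median log2 fold change was 0.88, beside 0.04 over all tested genes. *Pde4b*, which breaks down cAMP, went from 3.75 ± 0.802 to 194 ± 9.63 CPM (log2 fold change 5.70, SE 0.167, edgeR FDR = 3.1e-16), and *Pde4d* was higher by 1.76. *Bdnf* (−0.59) and *Irs2* (−0.35) were lower. Against untreated *Lkb1*-/- MEFs clone A1 had 11 lower and 2 higher (background 16.4% lower and 18.9% higher), with a median of −0.50. Clone A2 had 14 lower and 1 higher (15.1% and 17.1%), with a median of −0.65, and the median over all tested genes was 0.02 for both. Under IL-1β A1 had 11 lower and 2 higher (17.3% and 19.4%) and A2 had 15 lower and 2 higher (15.8% and 17.1%), with medians of −0.54 and −0.79 beside 0.01 and 0.01 over all tested genes. *Ptgs2*, the inducible cyclooxygenase gene, was lower in both (−1.68 in A1, edgeR FDR = 2.7e-05, and −2.66 in A2), as was the nuclear receptor gene *Nr4a2* (−1.38 and −0.81), whereas *Cited2*, whose protein binds CBP and p300, was higher (0.50 and 0.76). Against wild type the untreated clones had 6 higher and 2 lower for A1 (background 30.3% and 25.1%) and 9 higher and 4 lower for A2 (32.7% and 27.9%), with medians of 0.15 in both beside 0.04 and 0.05 over all tested genes. The comparisons with *Lkb1*-/- MEFs share the same 3 libraries, so a value high or low in these enters each of them.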

How the data were processed

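RNA was sequenced in read pairs, and the deposited files hold raw counts per gene for each library, which the authors made with STAR 2.7.8a after trimming with Trim Galore 0.6.0 (versions from the submitters' processing notes). The labels name mm10 as the build and a SMARTER mRNA-Seq kit, whereas the study's methods name a KAPA kit with depletion of ribosomal RNA, so the kit is uncertain. The column of second-strand counts was used, which held 95.5% to 96.0% of the counts of both strands. The 4 lines that name no gene (26.7% to 34.4% of pairs) stayed out of library sizes and tests. Symbols (55230 of 55471 identifiers) and positions came from GENCODE M21 on GRCm38. Identical library pairs numbered 0.

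Genes with at least 10 counts by edgeR's expression filter and at least 15 in total were kept (17522). In R 4.3.3, edgeR 4.0.16 (with limma 3.58.1) was used with TMM scaling and the quasi-likelihood test, with every one of the 24 libraries in 1 model that has a mean for each group, and p-values were adjusted by Benjamini-Hochberg over all genes tested (threshold 0.05). CPM are TMM-scaled, intervals are 95% intervals of the fit, and the common biological coefficient of variation was 12.9%. The code was tested on simulated data. Alternatives were other scalings and filters, unstranded counts, DESeq2 1.42.0, a replicate block, models of the compared groups alone, and omission of single libraries. Leaving out all libraries numbered 1 and a covariate for the share of pairs naming no gene were added after seeing the data.

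The members, the gene lists and the rule for named genes were chosen with earlier results of these data known. That rule took the members, *Stk11*, *Il6*, up to 2 genes most correlated with each member, genes overlapping a member, and up to 2 genes in each direction from each list with the largest fold change and a mean log2 CPM above 3, called between untreated *Lkb1*-/- and wild-type MEFs or in both clones under IL-1β. *Pde4b* levels and markers are given besides. Whether equal replicate numbers pair libraries was checked on how their departures from the group means correlate. Over 84 pairs r was 0.036 to 0.59 (median 0.22), and every pair exceeded 0.1 for *Lkb1*-/- against wild type, both clones against *Lkb1*-/- and clone A2 against A1 under IL-1β, for untreated clone A2 against *Lkb1*-/-, for the 4 responses to IL-1β and for the response difference of clone A2. The pairing comes from this check and not from the labels.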

Additional observations from a re-analysis of the deposited data

Results flagged for a closer look

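Between the clones, *Crtc2* (0.22), *Crtc3* (0.46) and *Ep300* (0.32) were higher in A2 than in A1 without treatment, and *Crtc1* (0.25), *Crtc3* (0.42) and *Ep300* (0.33) under IL-1β, as log2 differences that also equal the differences of the clones' changes against the same *Lkb1*-/- libraries. Counts on the strand opposite to a member entered only the alternative with unstranded counts. They were higher in some groups than in every wild-type library of the same treatment. For *Ep300* the lowest count was 34 in untreated *Lkb1*-/-, 36 in untreated clone A1 and 61 in untreated clone A2 MEFs, against 16 to 32 in wild-type libraries. Under IL-1β it was 51 in *Lkb1*-/- and 58 in clone A2 MEFs, against 16 to 45 in the wild type. Sense counts of *Ep300* were higher in these groups too. As a percent of its counts on both strands, untreated *Lkb1*-/- (0.29 to 0.43) and clone A1 (0.32 to 0.37) overlapped the wild type (0.16 to 0.33). Untreated clone A2 (0.37 to 0.48) did not. Under IL-1β *Lkb1*-/- (0.44 to 0.58) overlapped the wild type (0.19 to 0.45) and clone A2 (0.46 to 0.51) did not. For *Crtc1* all untreated clone A2 libraries had 7 opposite-strand counts, against 2 to 3 in the wild type, and for *Crem* the lowest count in *Lkb1*-/- MEFs under IL-1β was 5, against 1 to 2. These differences in opposite-strand counts were not tested. Groups of 3 libraries were not tested for outliers.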

How the results depend on the processing

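All 8 members were followed in every comparison, 152 fold changes in all. Other scalings, filters, tests and models gave 1368 values, of which 1275 kept direction and side of the threshold, 61 were newly called, 7 lost their call and 25 changed sign. Leaving out 1 library gave 1056 values, with 959 the same, 16 newly called, 10 lost and 71 of changed sign. The covariate and leaving out the libraries numbered 1, both chosen after seeing the data, gave 304 values, with 257 the same, 35 newly called, 1 lost and 11 of changed sign. Of the values that changed sign 0 were called, before or after, and the cause was not tested.

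The values of changed sign were as follows. *Crebbp* in *Lkb1*-/- against wild-type MEFs under IL-1β was at 0.0138 with the size factors of DESeq2, 0.0139 by DESeq2, 0.0856 with upper quartile scaling, 0.011 without the filter, 0.0569 with at least 10 counts, 0.0121 with the compared groups alone and 0.0469 without libraries numbered 1. In clone A1 under IL-1β it was at −0.0081 (groups alone) and −0.012 (without libraries numbered 1) against *Lkb1*-/- and at −0.0209 (unstranded), −0.0181 (groups alone) and −0.0076 (covariate) against wild-type MEFs. *Ep300* in clone A1 against *Lkb1*-/- MEFs was at 0.0081 (unstranded) and 0.0001 (without libraries numbered 1) untreated, and under IL-1β at −0.0001 (size factors), −0.0002 (DESeq2), −0.0185 (groups alone), −0.0022 (covariate) and −0.0169 (without libraries numbered 1). *Atf1* in untreated clone A2 against A1 was at −0.0007 (unstranded) and −0.0075 (no filter). The response of *Crebbp* in wild type was −0.014 (unstranded), −0.0152 (size factors, and DESeq2), −0.0142 (no filter) and −0.0053 (at least 10 counts), and that of *Crtc1* in clone A2 0.0009 (groups alone). The response difference of clone A1 minus *Lkb1*-/- was 0.0052 for *Atf1* (no filter), 0.0028 (unstranded), 0.0095 (no filter) and 0.0019 (at least 10 counts) for *Crebbp* and −0.017 for *Ep300* (without libraries numbered 1). That of clone A2 minus *Lkb1*-/- was −0.0882 for *Crtc1*, −0.0101 for *Crtc2*, −0.023 for *Crebbp* and −0.0381 for *Ep300* without libraries numbered 1.

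Leaving out 1 library gave these ranges where a sign changed. For *Crebbp* they were −0.0675 to 0.0548 in *Lkb1*-/- against wild-type MEFs under IL-1β, and in clone A1 under IL-1β −0.0508 to 0.0715 against *Lkb1*-/- and −0.0269 to 0.0412 against wild type. For *Ep300* in clone A1 against *Lkb1*-/- MEFs they were −0.034 to 0.0147 untreated and −0.0374 to 0.0492 under IL-1β. In clone A2 against *Lkb1*-/- MEFs *Creb1* ranged from −0.0723 to 0.0588 untreated and from −0.1788 to 0.0226 under IL-1β, where *Crtc3* ranged from −0.0308 (without the first *Lkb1*-/- library) to 0.1972. *Atf1* between the clones ranged from −0.007 to 0.0219 untreated and from −0.0549 to 0.0069 under IL-1β. The wild-type response was −0.0649 to 0.0042 for *Crtc1*, −0.1552 to 0.0052 for *Crtc3*, −0.0383 to 0.0257 for *Crebbp* and −0.003 to 0.0694 for *Ep300*, and that of clone A2 −0.1029 to 0.0382 for *Crtc1*, −0.099 to 0.1472 for *Crem* and −0.1152 to 0.0065 for *Ep300*. The response difference of *Lkb1*-/- minus wild type was −0.0814 to 0.0113 for *Crtc1* and −0.0798 to 0.0445 for *Creb1*. That of clone A1 minus *Lkb1*-/- was −0.1531 to 0.0538 for *Crtc3*, −0.1239 to 0.0615 for *Creb1*, −0.0389 to 0.0172 for *Atf1*, −0.0713 to 0.051 for *Crebbp* and −0.0217 to 0.0649 for *Ep300*. That of clone A2 minus *Lkb1*-/- was −0.0269 to 0.1143 for *Crtc1*, −0.1947 to 0.0256 for *Crtc3*, −0.1456 to 0.0342 for *Creb1*, −0.0541 to 0.0019 for *Atf1*, −0.0054 to 0.123 for *Crebbp* and −0.0083 to 0.1026 for *Ep300*.

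Members called in clone A1 against *Lkb1*-/- MEFs went from 3 to 5, untreated and under IL-1β, with upper quartile scaling, without the filter, with at least 10 counts in every library, with the groups compared alone, with the replicate block, with the covariate and without the libraries numbered 1, and under IL-1β also with DESeq2. Clone A2 against A1 went from 3 to 5 untreated (block, covariate, or without libraries numbered 1), and under IL-1β to 7 (block or covariate) or 5 (DESeq2, or without libraries numbered 1). Responses to IL-1β went from 0 to 2 with the replicate block in *Lkb1*-/- MEFs and clone A2 and to 1 in clone A1, to 2 with the covariate in clone A2, and without libraries numbered 1 to 1 in clone A1 and 2 in clone A2. Leaving out 1 library gave 2 to 5 members for clone A2 against A1 untreated and 2 to 4 under IL-1β, 3 to 5 for clone A1 against *Lkb1*-/- under IL-1β, and 0 to 1 for the response of clone A2.

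The replicate block also added calls in comparisons where not every same-numbered pair exceeded an r of 0.1, though every r was positive. In untreated *Lkb1*-/- against wild-type MEFs these were for *Crem* (0.30) and *Crebbp* (0.13). In untreated clone A1 against *Lkb1*-/- MEFs they were for *Crtc3* (−0.29) and *Creb1* (−0.24). Against wild type they were for *Crebbp* in clone A1 (0.16, untreated) and clone A2 (0.14, IL-1β) and for *Crtc3* in untreated clone A2 (−0.24). Between the untreated clones they were for *Crtc1* (0.15) and *Creb1* (0.20). Of the 24 libraries, 23 correlated best with their own number. Upper quartile scaling moved the median of all genes by up to 0.11.

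The backgrounds moved as well. Over all genes the calls for the IL-1β response, 396 in wild-type, 831 in *Lkb1*-/-, 348 in clone A1 and 995 in clone A2 MEFs, were 1629, 2601, 1684 and 3133 with the replicate block, 954, 1428, 908 and 1643 without the filter, 1118, 1959, 1128 and 2562 with the covariate and 921, 1534, 899 and 2556 without libraries numbered 1, and clone A2 had 243 with its own groups alone. Calls for the response differences, 43 (*Lkb1*-/- minus wild type), 5 (clone A1 minus *Lkb1*-/-) and 0 (clone A2 minus *Lkb1*-/-, where 388 genes had an unadjusted edgeR p under 0.05), were 347, 141 and 68 without the filter, 121, 12 and 12 with DESeq2 and 311, 36 and 18 with the block. Of the wild-type response calls 67.7% were higher, and 57.4% with upper quartile scaling.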
